A study of Mus musculus with 12 samples.

Results

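The genes examined here code for the parts of the constitutive proteasome and for the proteins that open, block or assemble it. They were taken by symbol: every gene whose symbol begins with Psma, Psmb, Psmc, Psmd, Psme, Psmf or Psmg followed by a digit, without the immunoproteasome genes Psmb8, Psmb9 and Psmb10. The rule found 45 of the 23185 named genes of the array, each with 1 probe set. They are 7 alpha and 5 beta subunits of the 20S core, 6 ATPases and 11 other subunits of the 19S regulatory particle, 3 chaperones of 19S base assembly, 4 activators, 1 inhibitor and 4 chaperones of 20S assembly. The other 4 are 2 core subunits of restricted tissues, Psma8 and Psmb11, and 2 genes that meet the rule by name but are not proteasome parts, Psmc3ip and Psme3ip1. Of 48 protein-coding RefSeq genes that meet the rule, Psmb3, Psmb5 and Psme2b were not analysed here.

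The proteasome degrades proteins that carry ubiquitin chains. Its core is a barrel of alpha and beta rings, in which the alpha subunits form the gate and a few beta subunits carry the cutting sites. The 19S particle sits on the end of the barrel, binds the ubiquitin chain, removes it, and unfolds the substrate with a ring of ATPases. In skeletal muscle the ubiquitin ligase Trim63 (MuRF1) marks sarcomere proteins for this route, and proteasome genes are known to be induced together in several kinds of muscle wasting.

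Total RNA of the gastrocnemius, the large calf muscle, was measured on 12 one-colour arrays, 3 in each of 4 groups. All mice were 12 weeks old, carried the strain name BKS.Cg-Dock7m +/+ Leprdb/J, which denotes a mutation of the leptin receptor that makes the animals obese and diabetic, and were killed 1 week after injection of adenovirus coding for short hairpin RNA (shRNA). The control shRNA group (animals 18, 19 and 20) received 4e+09 plaque-forming units of control virus. The LCN13 shRNA group (21, 22 and 23) and the TSC22D4 shRNA group (25, 26 and 27) received 2e+09 units of the named virus with 2e+09 of control virus, and the TSC22D4+LCN13 shRNA group (29, 30 and 32) received 2e+09 units of each target virus and no control virus. TSC22D4 is a transcriptional regulator and LCN13 a secreted lipocalin. No group without virus or without the receptor mutation was part of the set. The animals were chosen as representative from 7 treated per group, 28 in all, and which tissue took up the virus is not stated in the labels. Values are log2 levels, on which differences stand for ratios, made with RMA, a method that sets arrays to the same distribution of values. The sorted values were equal in 11 of the 12 arrays, all but that of control animal 18. Precision is limited by having 3 arrays a group.

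The targeted genes did not separate the groups by level. Tsc22d4 lay between 6.43 and 7.01 over the 12 arrays, and its mean after TSC22D4 virus was above that of control without passing the test (log2 difference 0.24, SE 0.121, limma adjusted p = 0.619). Lcn13, listed under its current symbol Obp2a, measured 4.90 to 4.97, close to the lowest value of the table, 4.78. The groups are therefore named by the virus given. All 8 muscle fibre markers lay at or above the 99.4th percentile of the genes, and 0 of them passed the test in any of the 6 pairwise comparisons. The mean deviation of 8 tendon and fibroblast genes from their 12-array means was -1.08, 0.02 and -1.07 in the control arrays and between -0.38 and 0.60 in the other 9. That of 10 interferon-induced genes was 0.69 to 1.00 in control and -0.45 to -0.19 in the other arrays. A score of 5 hepatocyte genes, made in the same way, was -0.59 to 0.31 in control, -0.01 to 1.28 after LCN13 virus, -0.55 to -0.31 after TSC22D4 virus and -0.68 to 0.62 after both, and 0 of the 5 passed in the 6 comparisons. The score of 3 red cell genes was 0.34 to 1.42 with both viruses, -0.14 to 0.49 with TSC22D4 virus and at most -0.10 in the other arrays. That of 4 macrophage genes was 0.16 to 0.82 with both viruses and -0.34 to 0.16 in the other arrays. With both viruses Hbb-b1, Alas2, Adgre1, Mrc1 and Postn passed as higher than in control, and Hbb-b1, Alas2, Slc4a1 and Adgre1 as higher than with LCN13 virus. LCN13 animal 21 stood apart for the proteasome genes: it had the lowest of the 12 values for 16 of the 45 and the highest for 5, against 11.2% and 11.7% of all genes. Control animal 20 had the highest value for 12 of the 45 (26.7%), and for 8 of the 17 genes of the 19S particle (47.1%), against 7.95% of all genes. The mean deviation of the 8 muscle fibre genes was -0.12 in control animal 18 and -0.03 to 0.03 in the other arrays. The main results that rest on these groups are therefore also given without LCN13 animal 21. Those of the 19S particle against control are also given without control animal 20. Leaving out each array in turn, control animal 18 among them, is described at the end. In a bulk tissue sample, fewer cells of a type and less RNA per cell cannot be told apart.

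Proteasome transcripts differed little between the groups. In the comparison of TSC22D4 shRNA with control 0 of the 45 genes passed the test (limma, adjusted p below 0.05), where 0.336% of all genes did. At an unadjusted p below 0.05 there were 7 genes, or 15.6%, against 9.26% of all genes. LCN13 shRNA against control gave 1 of 45, against 0.85% of all genes, and 17 at the unadjusted threshold, or 37.8%, against 12.4%. TSC22D4+LCN13 shRNA against control gave 3 of 45, against 4.34% of all genes. At the unadjusted threshold it gave 14 of 45, a larger share than the 20.4% of all genes. The 3 comparisons share the control arrays. The genes called against control were Psmd1, which fell with LCN13 virus and with both viruses, and Psme4, which fell, and Psmd14, which rose, with both viruses. The red cell and macrophage genes moved with the both-virus group, by a median of 1.42 over 3 and 0.65 over 4 genes against control and of 1.57 and 0.48 against LCN13 virus, and their part in the calls of that group was not tested. For TSC22D4 virus and for both viruses the 95% interval of each of the 45 differences from control lay inside 1.5-fold, and for LCN13 virus that of 38 did. The largest difference from control was that of Psmc5 after LCN13 virus, 1.35-fold, which did not pass.

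**Figure D1:**
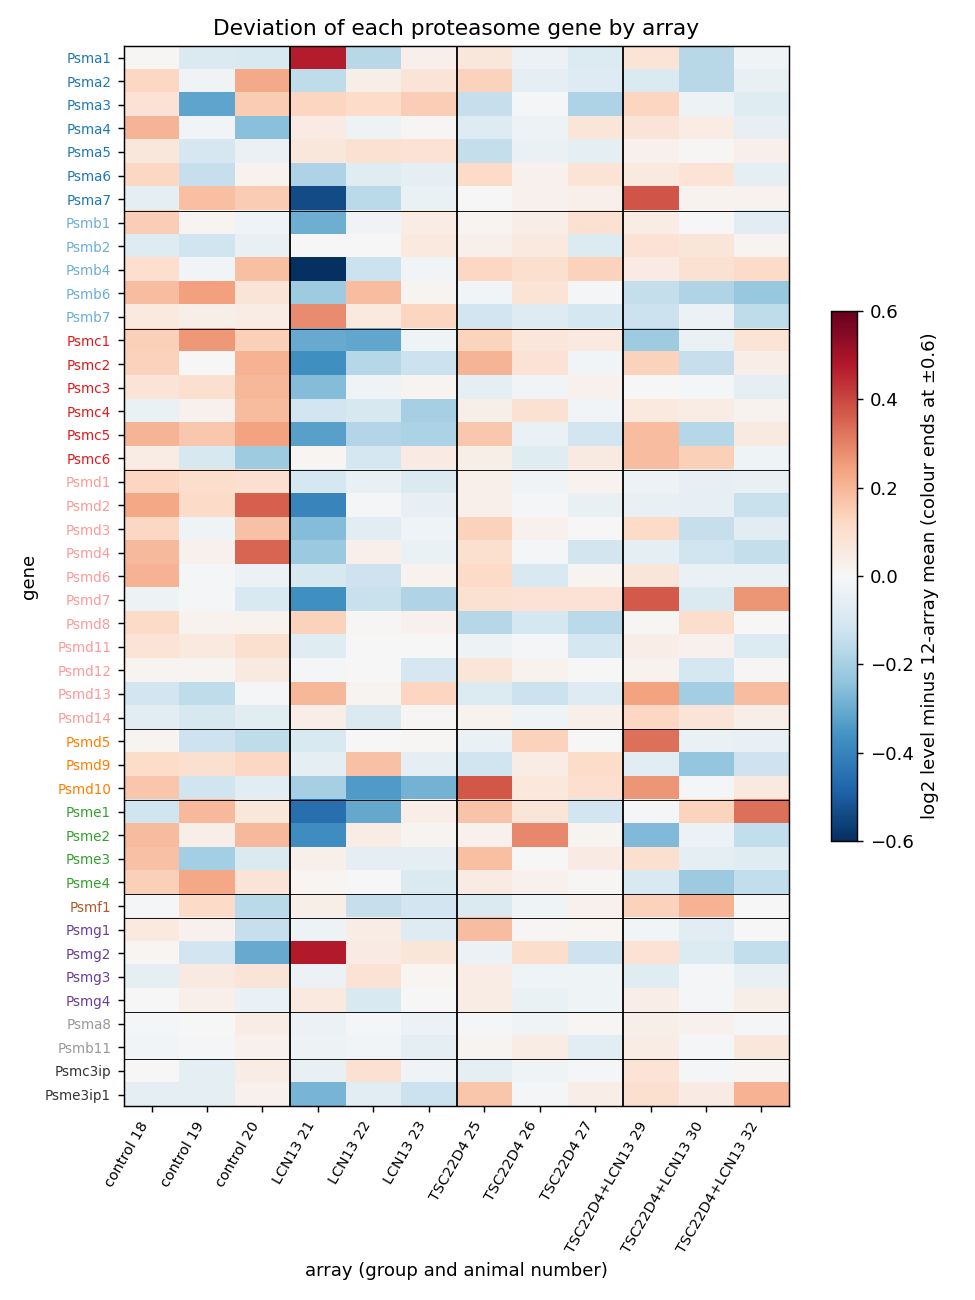
Each row is one of the 45 genes and each column an array with its group and animal number. Rows are ordered by role from the 20S alpha ring at the top to Psmc3ip and Psme3ip1, not proteasome parts, at the bottom. Colour gives the log2 level minus the mean of the 12 arrays, and the column of LCN13 animal 21 holds the deepest blue and red cells, among them Psmb4 at 9.88 and Psma1 at 10.19 on the log2 scale.

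Most genes of the 19S particle lay lower after LCN13 virus than in control, and 1 of them passed the test. Subunits under symbols outside the rule are not among the 17 genes counted here. Of these 17, 13 had a lower mean after LCN13 virus than in control, as 48.8% of all genes had. The median difference of the 17 was -0.19 on the log2 scale, beside 0.0014 over all genes. For 11 of the 17 all LCN13 arrays lay below all control arrays, as for 9.02% of all genes, and for 1, Psmd13, all lay above, as for 9.74%. At the unadjusted threshold 10 were lower, against 6.49% of all genes, and 0 higher, against 5.89%. Only Psmd1 passed after adjustment over all genes. Without animal 21, 14 of 17 were below 0 with a median of -0.13, and 11 of 17 had groups that did not overlap, as 13.8% of all genes then did. At the unadjusted threshold 7 of 17 were then lower, against 5.34% of all genes. Without control animal 20, 14 of 17 were below 0 with a median of -0.17, and 11 of 17 did not overlap, against 12.8%. With all arrays, the means after TSC22D4 virus and after both viruses were also below control for 13 of the 17 each. Of all genes, 51.6% and 53.4% were below. The medians of the 17 were -0.04 and -0.08. All arrays lay below control for 6 of the 17 in each, as for 9.15% and 14.3% of all genes. They lay above for 2 and 1, as for 7.8% and 9.48%. Without control animal 20, 9 of the 17 were below control and 8 above after TSC22D4 virus. After both viruses 12 were then below and 5 above. The medians were then -0.09 and -0.08, and 11984 and 12267 of all 23185 genes were below control. The LCN13 group had the lowest of the 4 group means for 11 of the 17 (25.2% of all genes) and the control group the highest for 11 of 17 (25.0%). The mean tendon and fibroblast score was -0.71 in control, 0.30 after LCN13 virus, 0.01 after TSC22D4 virus and 0.40 after both. With that score as a covariate, an alternative chosen after seeing the data, the median LCN13 difference of the 17 was -0.04. As the score differs with the group, such a fit cannot tell score and group apart. Whether the higher interferon-induced genes of the control arrays have a part in the 19S difference was not tested.

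Psmd1, the large scaffold subunit of the 19S base, gave the smallest p among the proteasome genes in this comparison. It measured 11.22, 11.20 and 11.19 in the control arrays, 10.99, 11.05 and 11.01 after LCN13 virus, 11.12, 11.07 and 11.11 after TSC22D4 virus and 11.06, 11.04 and 11.05 after both. The control arrays were the highest, the TSC22D4 arrays came next, and both groups lay above all arrays that had received LCN13 virus. The difference from control was -0.19 after LCN13 virus (SE 0.0230, adjusted p = 0.00796), -0.15 after both (SE 0.0230, adjusted p = 0.00941) and -0.10 after TSC22D4 virus, which did not pass (adjusted p = 0.144). Both calls held when each array was left out in turn, with an adjusted p of at most 0.0351. They rest on a small spread between arrays, and with limma's trend and robust options, which pull small variances toward those of genes of like level, the adjusted p was 0.146 after LCN13 virus and 0.131 after both. Over all settings tried the adjusted p was 0.00554 to 0.292 for the first and 0.00937 to 0.216 for the second, and both were also lost among genes above the median level, with the tendon and fibroblast covariate and in the compared groups alone.

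**Figure D2:**
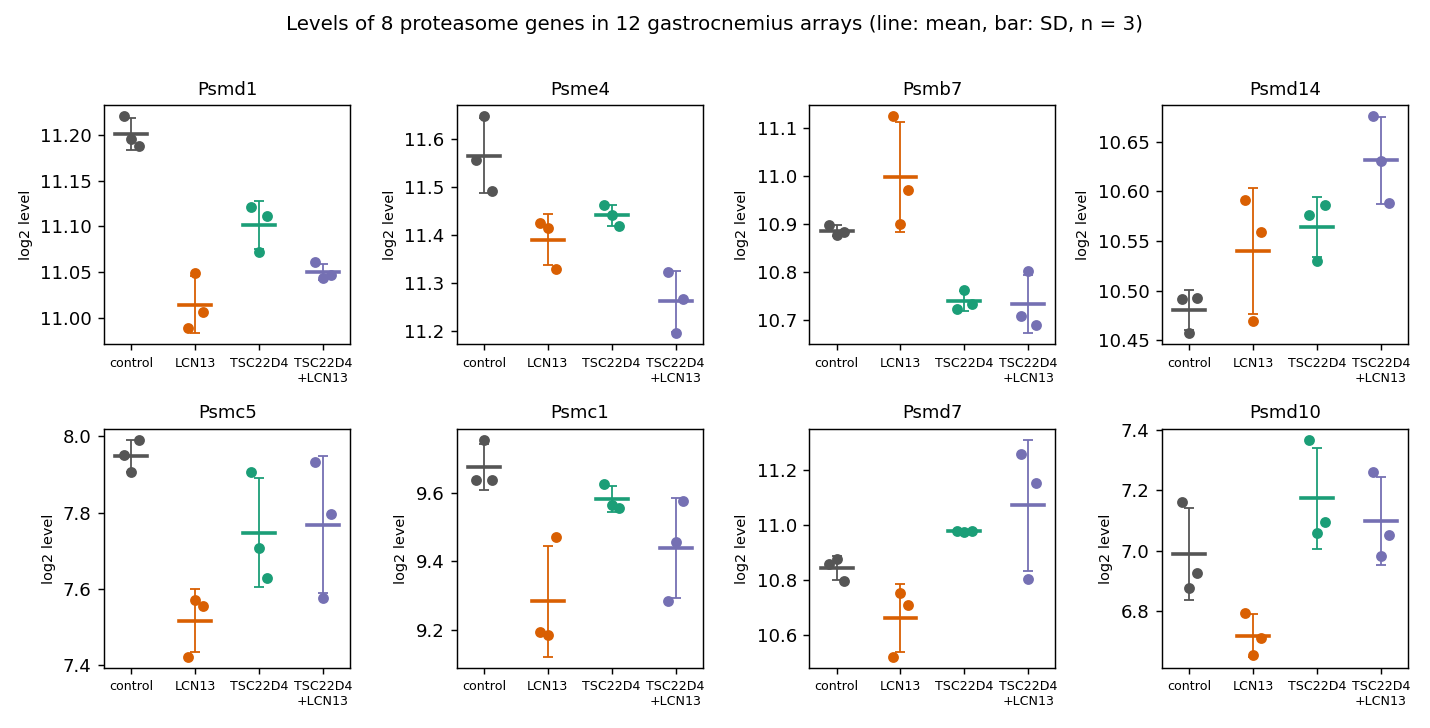
The log2 level of 8 proteasome genes is plotted for each of the 12 arrays, with the group mean as a line and the SD as a bar (n = 3 per group, and each panel has its own axis that does not start at 0). For Psmd1 the control arrays, at 11.19 to 11.22, lie above all others, and for Psme4 the arrays of both viruses, at 11.20 to 11.32, lie below all others.

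The ATPase ring, Psmc1 to Psmc6, unfolds the substrate. After LCN13 virus 5 of the 6 had LCN13 arrays that all lay below control, as 9.02% of all genes had, and the median difference was -0.28, yet none passed after adjustment. Psmc5 measured 7.95, 7.91 and 7.99 in the control arrays, 7.42, 7.57 and 7.56 after LCN13 virus, 7.91, 7.71 and 7.63 after TSC22D4 virus and 7.93, 7.58 and 7.80 after both. Its LCN13 arrays lay below every other array, and the difference from control was -0.43 (95% interval -0.64 to -0.22, adjusted p = 0.0786). Psmc1 measured 9.64, 9.75 and 9.64 in the control arrays, 9.19, 9.19 and 9.47 after LCN13 virus, 9.63, 9.56 and 9.55 after TSC22D4 virus and 9.28, 9.46 and 9.58 after both. Animals 21 and 22 were the lowest for Psmc1, with a difference from control of -0.39 (95% interval -0.59 to -0.20, adjusted p = 0.0870). When only genes above the median level were tested, both passed, with adjusted p = 0.0430 for Psmc5 and 0.0477 for Psmc1. Over all settings it was 0.0334 to 0.850 and 0.0397 to 0.405. Without animal 21 the differences were -0.38 and -0.35 (adjusted p = 0.227 and 0.250), and 5 of the 6 ATPases lay wholly below control, against 13.8% of all genes, with a median of -0.24. Psmc2, Psmc3 and Psmc4 differed from control by -0.34, -0.21 and -0.20, and Psmc6 by 0.07 with arrays that overlapped. After TSC22D4 virus and after both viruses the ATPase medians were -0.06 and -0.12, and 0 of 6 passed in either.

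Among the other 19S subunits, Psmd2, a base subunit that docks ubiquitin carriers, measured 12.07, 11.96 and 12.20 in the control arrays, 11.44, 11.83 and 11.79 after LCN13 virus, 11.87, 11.84 and 11.79 after TSC22D4 virus and 11.79, 11.79 and 11.71 after both. Its control arrays lay above all the rest, and the difference was -0.39 after LCN13 virus (adjusted p = 0.111), -0.31 after both (adjusted p = 0.102) and -0.24 after TSC22D4 virus (adjusted p = 0.474). Psmd4, a ubiquitin receptor of the particle, differed from control by -0.27, -0.30 and -0.20 in the same order, and none of the 3 passed. Psmd11, a lid subunit, measured 10.81, 10.78 and 10.82 in the control arrays, 10.65, 10.72 and 10.73 after LCN13 virus, 10.69, 10.71 and 10.62 after TSC22D4 virus and 10.76, 10.75 and 10.64 after both. All control arrays lay above the other 9 for Psmd11, and the mean difference of the TSC22D4 group was -0.13 (adjusted p = 0.298). None of the other lid subunits named next passed: Psmd3, Psmd6 and Psmd12 differed from control by -0.21, -0.12 and -0.07 after LCN13 virus, and Psmd13 by 0.21.

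A few lid subunits did not follow that order. Psmd14, the enzyme that cuts the ubiquitin chain from the substrate, measured 10.49, 10.46 and 10.49 in the control arrays, 10.59, 10.47 and 10.56 after LCN13 virus, 10.58, 10.53 and 10.59 after TSC22D4 virus and 10.68, 10.63 and 10.59 after both. Its control and LCN13 arrays overlapped, while all arrays of both viruses but animal 32 lay above the remaining 9. The rise with both viruses over control was 0.15 (SE 0.0354, adjusted p = 0.0451). It held without LCN13 animal 21 or 22 (adjusted p = 0.0387 and 0.0286) and was lost without any of the other 10 arrays, with an adjusted p of 0.0583 to 0.119. Over the other settings its adjusted p was at most 0.233, and it was lost among genes above the median level, with the trend and robust options, array weights and the tendon and fibroblast covariate, and in the compared groups alone. Psmd7, the partner of Psmd14 in the lid, measured 10.86, 10.88 and 10.80 in the control arrays, 10.52, 10.75 and 10.71 after LCN13 virus, 10.98, 10.97 and 10.98 after TSC22D4 virus and 11.26, 10.80 and 11.15 after both. The LCN13 arrays were the lowest for Psmd7 and animals 29 and 32 the highest, and the difference between these groups was 0.41 (95% interval 0.18 to 0.64, adjusted p = 0.0543). Without animal 21 that difference was 0.34 (adjusted p = 0.154). Psmd8, a further lid subunit, measured 11.95, 11.85 and 11.85 in the control arrays, 11.97, 11.84 and 11.86 after LCN13 virus, 11.66, 11.73 and 11.67 after TSC22D4 virus and 11.84, 11.94 and 11.83 after both. Here the TSC22D4 arrays were the lowest of all, -0.20 from control (95% interval -0.30 to -0.10, adjusted p = 0.141).

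The 20S core genes lay on both sides of control in each of the 3 comparisons. After LCN13 virus 6 of its 12 genes lay below control and 6 above, with a median difference of -0.04, 0 genes whose LCN13 arrays all lay below control (9.02% of all genes) and 3 of 12 whose arrays all lay above (9.74% of all genes). Without animal 21, 7 lay below and 5 above, with a median of -0.02. Without control animal 18 the median was 0.03. After TSC22D4 virus 6 lay below and 6 above with a median of -0.02, after both viruses 5 below and 7 above with a median of 0.02, and 0 of 12 passed in any of these 3 comparisons. The LCN13 group had the lowest mean for 4 of 12 and the highest for 4 of 12. By ring, the median was 0.03 over the alpha ring and -0.14 over the beta ring after LCN13 virus.

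Psmb7, the beta subunit with the trypsin-like cutting site, was the core gene that passed a test. It measured 10.90, 10.88 and 10.88 in the control arrays, 11.12, 10.90 and 10.97 after LCN13 virus, 10.72, 10.76 and 10.73 after TSC22D4 virus and 10.71, 10.80 and 10.69 after both. Both groups with TSC22D4 virus lay below the control arrays and the LCN13 arrays at or above them, without overlap. The difference between both viruses and LCN13 virus was -0.26 (SE 0.0515, adjusted p = 0.0265), and that between TSC22D4 and LCN13 virus was -0.26 (adjusted p = 0.0765). Without animal 21 these were -0.20 (adjusted p = 0.0417) and -0.20 (adjusted p = 0.126). The difference between both viruses and LCN13 virus did not pass when LCN13 animal 23 was left out (adjusted p = 0.0515) or when animal 29 or 32 of both viruses was (0.0707 and 0.0799). Nor did it pass with the hepatocyte covariate (0.0520) or in the compared groups alone (0.154). Psmb6, which carries the caspase-like site, measured 6.50, 6.56 and 6.39 in the control arrays, 6.11, 6.50 and 6.33 after LCN13 virus, 6.30, 6.40 and 6.30 after TSC22D4 virus and 6.17, 6.14 and 6.09 after both. Its arrays of both viruses were below all control arrays, with a mean difference of -0.35 (95% interval -0.54 to -0.16, adjusted p = 0.0513), which did not pass.

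Several core genes had their outermost value in animal 21. Psmb4, a beta subunit without a cutting site, measured 10.73, 10.61 and 10.80 in the control arrays, 9.88, 10.50 and 10.61 after LCN13 virus, 10.75, 10.72 and 10.76 after TSC22D4 virus and 10.67, 10.71 and 10.74 after both. Psma7, of the alpha ring, measured 7.97, 8.21 and 8.18 in the control arrays, 7.49, 7.86 and 7.99 after LCN13 virus, 8.02, 8.05 and 8.06 after TSC22D4 virus and 8.41, 8.05 and 8.05 after both. In both genes animal 21 was the lowest of the 12 arrays by a wide margin, and the LCN13 differences of -0.38 and -0.34 did not pass (adjusted p = 0.320 and 0.319). Psma1 went the other way, with 10.19, 9.55 and 9.75 in the LCN13 arrays and 9.73, 9.63 and 9.63 in control. Psma5 measured 5.26, 5.09 and 5.15 in the control arrays, 5.26, 5.29 and 5.28 after LCN13 virus, 5.05, 5.15 and 5.14 after TSC22D4 virus and 5.22, 5.20 and 5.22 after both. These levels lie below the array median of 5.45, so Psma5 is not shown to be above background, and its differences between groups, at most 0.16, did not pass. The group means of the 7 genes Psma2, Psma3, Psma4, Psma6, Psmb1, Psmb2 and Psmb6 spanned 0.0461 for Psma4 to 0.352 for Psmb6.

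Core and regulatory particle were set side by side within each array. The mean deviation of the 17 genes of the 19S particle was 0.03 to 0.10 in control, -0.15 to -0.05 after LCN13 virus, -0.02 to 0.05 after TSC22D4 virus and -0.04 to 0.07 after both. That of the 12 core genes was -0.03 to 0.08, -0.09 to 0.04, -0.01 to 0.01 and -0.04 to 0.05 in the same order. The LCN13 arrays thus lay below all other 9 arrays for the 19S particle by a narrow gap, and overlapped every other group for the core. The core minus the 19S score was 0.05, 0.07 and 0.09 in LCN13 animals 21, 22 and 23, above all other arrays, which lay between -0.07 and 0.02. Animal 21 was the lowest array on both scores and was not apart on their difference. No test is given for these scores, since the genes were chosen with earlier results of these data known. The pooled SD between arrays of a group was 0.0473 for the 19S score and 0.0496 for the core score.

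**Figure D3:**
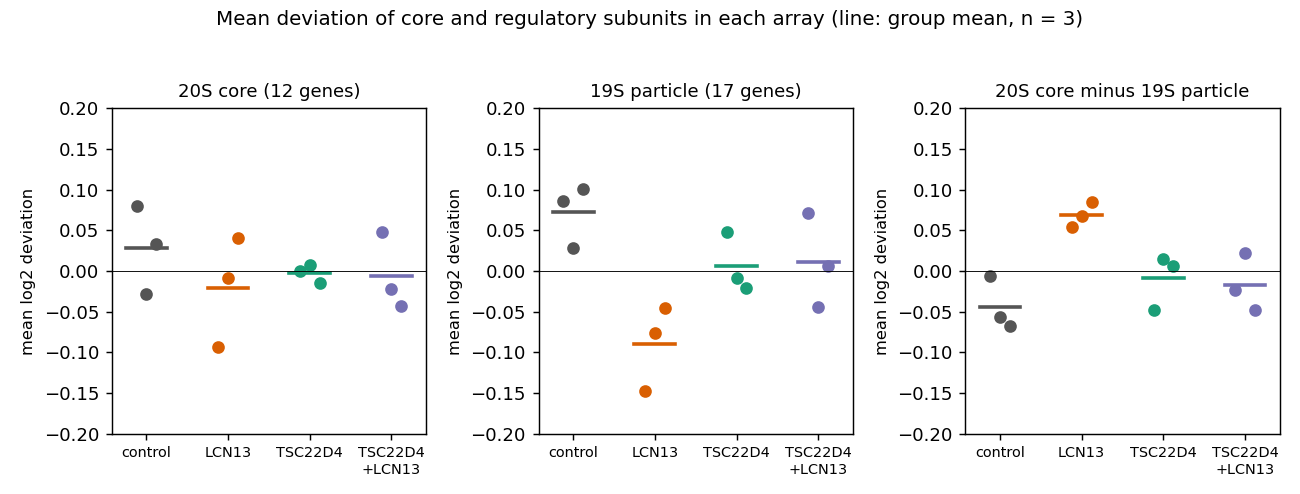
Each point is an array, placed by group, and its height is the mean log2 deviation from the 12-array means over the 12 genes of the 20S core (left), the 17 genes of the 19S particle (middle) or the difference of both (right), with a line at the group mean. The 3 LCN13 arrays lie at -0.15 to -0.05 for the 19S particle, and at 0.05 to 0.09 on the difference, above the other 9.

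The activators replace or join the 19S particle at the end of the barrel. Psme4 codes for PA200, a single large chain that opens the gate, and it measured 11.56, 11.65 and 11.49 in the control arrays, 11.43, 11.42 and 11.33 after LCN13 virus, 11.46, 11.44 and 11.42 after TSC22D4 virus and 11.32, 11.20 and 11.27 after both. The arrays of both viruses were the lowest and the control arrays the highest, with both single-virus groups in between. The fall with both viruses was -0.30 (SE 0.0458, 95% interval -0.41 to -0.20, adjusted p = 0.00913), or 1.23-fold, and held when each array was left out in turn, with an adjusted p of at most 0.0300. With the tendon and fibroblast score as a covariate its adjusted p was 0.135 with a difference of -0.34, and in the arrays of these 2 groups alone it was 0.0739. The differences of -0.18 after LCN13 virus and -0.12 after TSC22D4 virus did not pass (adjusted p = 0.132 and 0.427).

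Psme1 and Psme2 code for the alpha and beta chains of PA28, an activator known to be induced by interferon gamma. Psme1 measured 6.85, 7.16 and 7.04 in the control arrays, 6.51, 6.66 and 7.01 after LCN13 virus, 7.14, 7.04 and 6.85 after TSC22D4 virus and 6.95, 7.10 and 7.30 after both. Psme2 measured 7.05, 6.89 and 7.05 in the control arrays, 6.49, 6.90 and 6.87 after LCN13 virus, 6.88, 7.15 and 6.88 after TSC22D4 virus and 6.59, 6.82 and 6.71 after both. The groups overlapped for Psme1 in every comparison with control, and animal 21 was the lowest array for both genes. The differences after LCN13 virus were -0.29 and -0.24 (adjusted p = 0.448 and 0.449), and after both viruses 0.10 and -0.29 (adjusted p = 0.754 and 0.203). Ifit1, an interferon-induced antiviral gene, lay at 9.31 to 9.88 in control and at 6.35 to 7.54 in the other 9 arrays. Psme3, the nuclear activator PA28 gamma, had group means of 10.40 ± 0.193 (SD, n = 3) in control, 10.41 ± 0.0507 after LCN13 virus, 10.51 ± 0.0926 after TSC22D4 virus and 10.43 ± 0.0914 after both. Psmf1, which codes for the inhibitor PI31, measured 7.40, 7.52 and 7.24 in the control arrays, 7.44, 7.27 and 7.29 after LCN13 virus, 7.32, 7.38 and 7.43 after TSC22D4 virus and 7.54, 7.61 and 7.41 after both, and its groups overlapped in the comparisons with control.

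**Figure D4:**
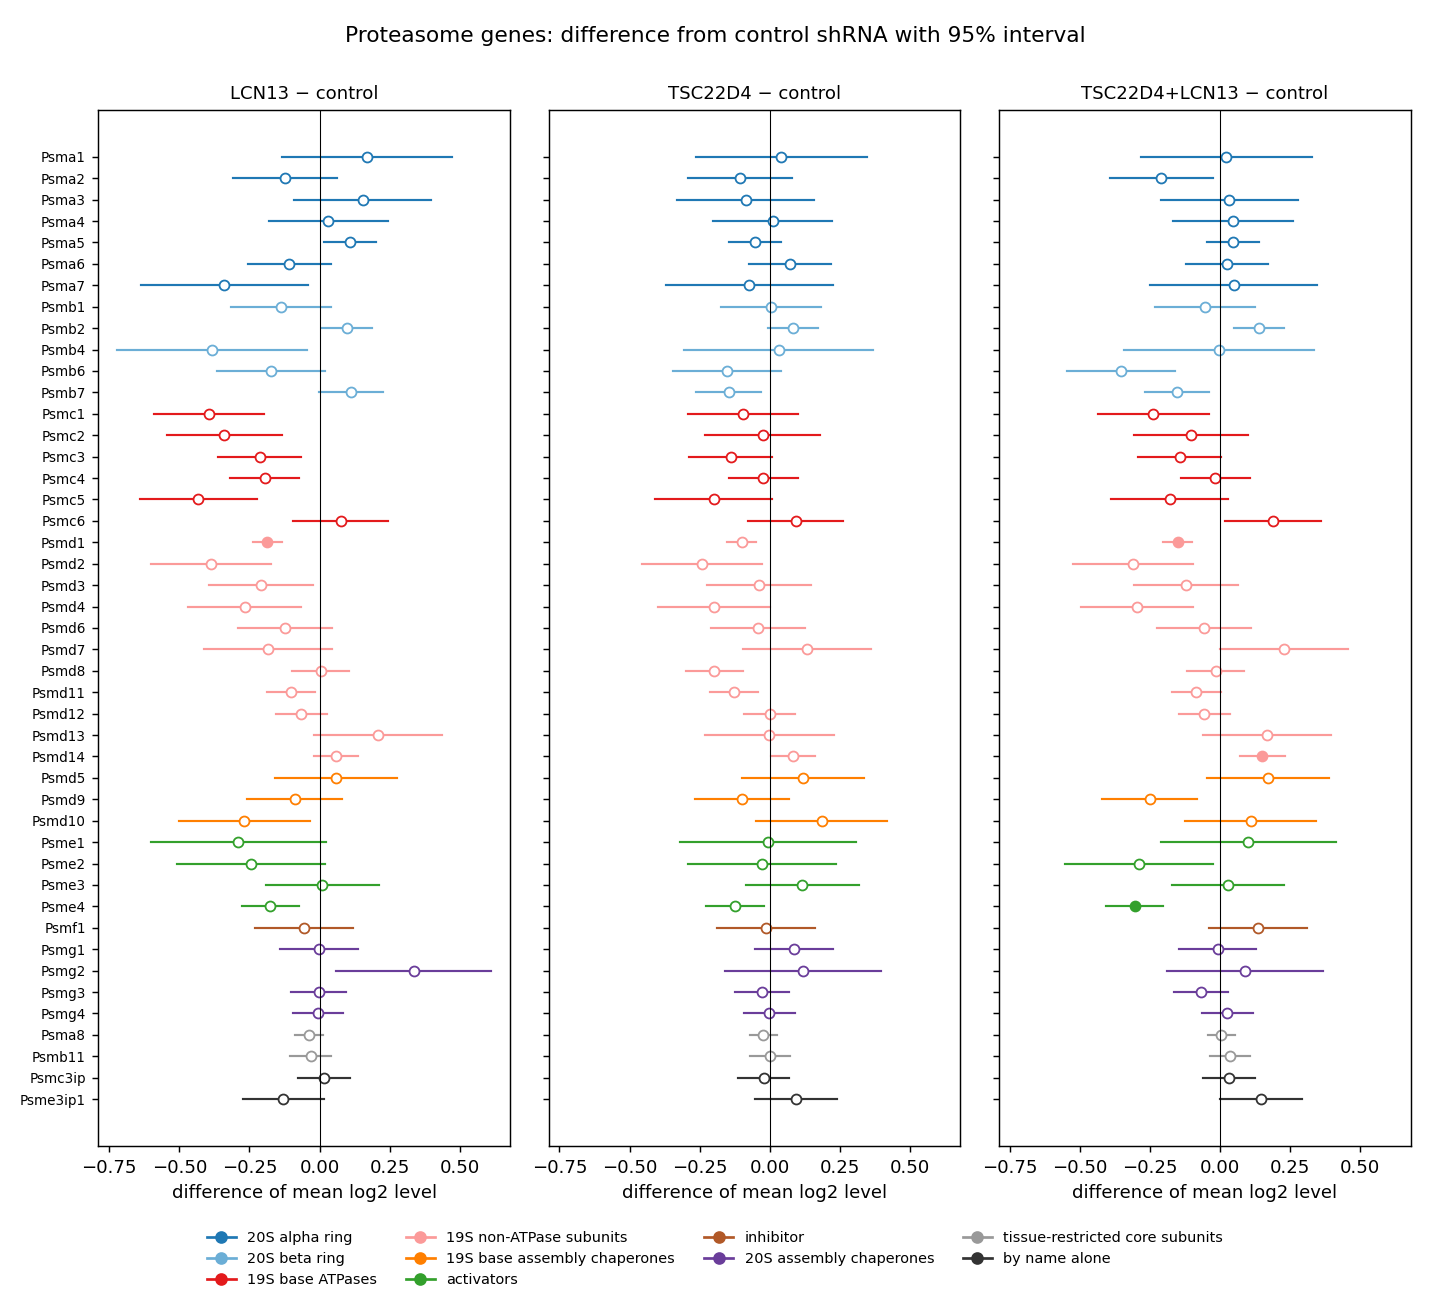
For each of the 45 genes the difference of the mean log2 level from control shRNA is plotted with its 95% interval for LCN13, TSC22D4 and TSC22D4+LCN13 shRNA, coloured by role, with filled points for an adjusted p below 0.05. The points of the 19S ATPases and non-ATPases lie mostly left of 0 in the LCN13 panel, with a median of -0.19 over the 17, and the filled points are Psmd1 in the LCN13 panel and Psmd1, Psmd14 and Psme4 in the TSC22D4+LCN13 panel.

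Chaperones that build the particle were next. Psmd10 codes for gankyrin, which holds the ATPases during assembly of the base, and it measured 7.16, 6.88 and 6.93 in the control arrays, 6.79, 6.65 and 6.71 after LCN13 virus, 7.37, 7.06 and 7.09 after TSC22D4 virus and 7.26, 6.98 and 7.05 after both. The LCN13 arrays were the lowest of all, and the difference between TSC22D4 and LCN13 virus was 0.45 (95% interval 0.22 to 0.69, adjusted p = 0.0996). Without animal 21 it was 0.49 (adjusted p = 0.188). Psmd9, of the same group of chaperones, differed from control by -0.25 after both viruses (adjusted p = 0.0964), and Psmd5 by 0.17 (adjusted p = 0.371). Psmg2, which pairs with Psmg1 to build the alpha ring, measured 8.38, 8.26 and 8.07 in the control arrays, 8.85, 8.42 and 8.45 after LCN13 virus, 8.34, 8.48 and 8.25 after TSC22D4 virus and 8.46, 8.29 and 8.23 after both. Animal 21 was the highest array for Psmg2, and the difference of the LCN13 group from control was 0.34 (95% interval 0.06 to 0.61, adjusted p = 0.285). Psmg1, Psmg3 and Psmg4 had group means that spanned 0.0957, 0.0669 and 0.0326, and Psmg3 and Psmg4 lay near the array median.

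The core subunits of restricted tissues were at the low end of the array. Psma8, known from testis, had group means of 5.01 to 5.05, and Psmb11, known from the thymic cortex, measured 5.06, 5.07 and 5.10 in the control arrays, 5.05, 5.06 and 5.02 after LCN13 virus, 5.09, 5.12 and 5.02 after TSC22D4 virus and 5.12, 5.07 and 5.15 after both. Neither is shown to be above background, and neither passed a test. Psmc3ip, a meiotic recombination factor that is no proteasome part, had group means of 5.34 to 5.39. Psme3ip1, whose protein binds PA28 gamma, measured 9.40, 9.40 and 9.48 in the control arrays, 9.18, 9.39 and 9.33 after LCN13 virus, 9.62, 9.45 and 9.49 after TSC22D4 virus and 9.55, 9.51 and 9.67 after both. Its LCN13 arrays were the lowest, below all other arrays, and it rose in the comparison of both viruses with LCN13 virus by 0.28 (SE 0.0648, adjusted p = 0.0472). That call held without LCN13 animal 22, TSC22D4 animal 25 or animal 30 of both viruses (adjusted p = 0.0486, 0.0467 and 0.0431) and was lost without any of the other 9 arrays (0.0582 to 0.129). It was also lost with the trend and robust options, array weights and the hepatocyte covariate, and in the compared groups alone, where the adjusted p was 0.158.

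The groups were also compared with one another. Both viruses were compared with LCN13 virus, where TSC22D4 virus took the place of control virus. That comparison gave 2 of 45 genes past the threshold, Psmb7 lower and Psme3ip1 higher, against 4.21% of all genes. At the unadjusted threshold it gave 13 of 45, a larger share than the 20.9% of all genes. In that comparison 14 of the 17 genes of the 19S particle lay above 0, with a median of 0.08, while 52% of all genes lay below 0, and 0 of them passed. Without animal 21 that median was 0.02. TSC22D4 against LCN13 virus gave 0 of 45, against 0.125% of all genes. At the unadjusted threshold it gave 13 of 45, a larger share than the 14% of all genes. There 14 of 17 genes of the particle lay above 0, where 52% of all genes lay below, with a median of 0.08. Without animal 21 these were 12 of 17 and 0.07. Both viruses against TSC22D4 virus gave 0 of 45, as they gave 0 of all 23185 genes. At the unadjusted threshold they gave 5 of 45, against 10.5% of all genes. The 95% interval of each of the 45 differences lay inside 1.5-fold there.

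The interaction asks whether the 2 target viruses add up on the log2 scale: it is the difference of both viruses from LCN13 virus minus that of TSC22D4 virus from control. It gave 0 of 45 genes, against 0.125% of all genes. At the unadjusted threshold it gave 8 of 45, all above 0, against 9.57% of all genes in either direction and 4.04% above 0. While 51.9% of all genes lay below 0, it was above 0 for 16 of the 17 genes of the 19S particle, with a median of 0.17, or 0.12 without animal 21, and for 6 of the 12 core genes, with a median of -0.0037. The median over all genes was -0.0032. Psmd1 had the smallest p, with an interaction of 0.14 (95% interval 0.06 to 0.21, adjusted p = 0.192), followed by Psmc5 with 0.45 (95% interval 0.16 to 0.75, adjusted p = 0.283). The test of any difference between the 4 groups called 3 of 45, Psmd1, Psme4 and Psmb7, against 3.33% of all genes. At the unadjusted threshold it gave 19 of 45, a larger share than the 20.8% of all genes. When each array was left out in turn, Psmd1 held in 12 of 12 fits, Psme4 in 6 and Psmb7 in 3.

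Other genes of the ubiquitin and proteasome pathway were read from a list of 36, of which 27 were measured. After LCN13 virus 2 fell and 0 rose, against 0.612% and 0.237% of all genes, with 23 of 27 below 0, against 48.8%, and a median of -0.12. Without animal 21, 0 of 27 passed, and 20 were below 0 with a median of -0.11. Trim63, the muscle ubiquitin ligase, measured 11.08, 10.75 and 10.71 in the control arrays, 9.87, 10.25 and 10.18 after LCN13 virus, 10.83, 10.61 and 10.59 after TSC22D4 virus and 10.71, 10.76 and 10.69 after both. Its LCN13 arrays lay below all others, and the difference from control was -0.75 (SE 0.120, adjusted p = 0.0251). Psmb9, the immunoproteasome subunit that replaces Psmb6, measured 6.08, 5.97 and 6.12 in the control arrays, 5.25, 5.64 and 5.29 after LCN13 virus, 6.16, 5.92 and 5.90 after TSC22D4 virus and 6.01, 5.85 and 5.95 after both, and its difference after LCN13 virus was -0.66 (SE 0.106, adjusted p = 0.0251). Both genes were higher with both viruses than with LCN13 virus, Trim63 by 0.62 (adjusted p = 0.0261) and Psmb9 by 0.54 (adjusted p = 0.0267), the 2 rises of the list there, against 1.32% of all genes. Without animal 21 the difference from control was -0.63 for Trim63 and -0.59 for Psmb9 (adjusted p = 0.0655 and 0.0896), and that between both viruses and LCN13 virus was 0.51 and 0.47 (adjusted p = 0.0654 and 0.0797), so none of the 4 calls held. The calls against control were also lost without control animal 18 or 20 or LCN13 animal 23, and those against LCN13 virus without animal 29 or 32 of both viruses, that of Psmb9 also without LCN13 animal 23. After both viruses against control 1 of 27 fell, Vcp, the ATPase that extracts ubiquitinated proteins from complexes, by 0.36 on the log2 scale (adjusted p = 0.0287), against 2.62% of all genes. It was lost without control animal 19 or 20 or animal 30 or 32 of both viruses, with an adjusted p of at most 0.0873. After TSC22D4 virus against control, and in the comparisons of TSC22D4 virus with both viruses and with LCN13 virus, 0 of 27 passed.

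The promoters of the genes called against control, and of Psme1 for its place among interferon-induced genes, are shown as RefSeq gives them in GRCm38.p6, from 250 bases before to 50 after the annotated start, 5′ to 3′ on the strand of the gene. Capitals mark matches, on either strand, to the antioxidant response element core TGACNNNGC, which binds Nfe2l1, the factor known to drive proteasome genes when the proteasome is inhibited, to the CCAAT box CCAAT, and to the interferon-stimulated element, a pair of GAAA runs with any 2 bases between them. No match of these letters is in the window of Psmd1. In Psmd14 the capitals are CCAAT boxes, 2 of which overlap just after the start, in Psme4 the response element core across the start, and in Psme1 the interferon-stimulated element just after it.
Psmd1, chr1:86064369-86064668, plus strand: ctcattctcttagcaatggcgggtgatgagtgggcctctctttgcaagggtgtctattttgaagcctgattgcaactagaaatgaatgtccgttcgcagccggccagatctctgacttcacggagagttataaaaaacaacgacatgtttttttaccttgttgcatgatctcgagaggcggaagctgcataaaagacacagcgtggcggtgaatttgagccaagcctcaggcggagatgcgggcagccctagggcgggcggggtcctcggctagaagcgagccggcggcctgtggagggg
Psmd14, chr2:61711444-61711743, plus strand: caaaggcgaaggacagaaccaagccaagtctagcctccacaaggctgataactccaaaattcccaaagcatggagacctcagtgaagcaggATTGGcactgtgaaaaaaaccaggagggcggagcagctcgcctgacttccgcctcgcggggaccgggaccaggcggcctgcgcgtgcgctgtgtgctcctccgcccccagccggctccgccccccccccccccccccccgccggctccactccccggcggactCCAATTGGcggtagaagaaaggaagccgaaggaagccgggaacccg
Psme4, chr11:30771525-30771824, plus strand: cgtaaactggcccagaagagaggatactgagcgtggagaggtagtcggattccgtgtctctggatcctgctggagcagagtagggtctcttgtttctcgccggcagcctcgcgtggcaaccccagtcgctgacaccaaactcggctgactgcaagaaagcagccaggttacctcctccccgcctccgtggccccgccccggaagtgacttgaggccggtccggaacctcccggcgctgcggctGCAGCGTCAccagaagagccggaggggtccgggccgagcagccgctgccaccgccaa
Psme1, chr14:55578244-55578543, plus strand: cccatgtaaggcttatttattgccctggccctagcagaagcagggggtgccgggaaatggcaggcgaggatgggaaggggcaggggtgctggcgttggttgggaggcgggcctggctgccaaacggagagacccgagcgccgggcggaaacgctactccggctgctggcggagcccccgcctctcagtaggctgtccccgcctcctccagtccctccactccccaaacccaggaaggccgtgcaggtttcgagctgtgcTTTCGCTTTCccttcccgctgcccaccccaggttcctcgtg
Of the 45 genes 37 had a window in the table. The response element core was in 5 of the 37 (13.5%), namely Psmb6, Psmc6, Psmd9, Psmd12 and Psme4, beside 14% of all genes. The CCAAT box was in 14 (37.8%) beside 41.1%, and the interferon-stimulated element in 4 (10.8%), Psmd4, Psmd9, Psme1 and Psmg4, beside 3.99%. A gamma-activated site, TTCNNNGAA, was in 2 (5.41%), Psmd2 and Psmg1, beside 9.55%. These are matches of letters and not shown to be bound.

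The spread between arrays of a group was larger at the median for the proteasome genes than over all genes. The median SD between arrays of a group was 0.112 for the core and 0.0998 for the 19S particle, against 0.0643 over all genes. All genes include those at the low end of the array, and no set of like level was compared. Deviations from the group means went together weakly over the 12 arrays, with a mean pairwise Pearson r of 0.11 within the core, 0.15 within the 19S particle and 0.14 between them, beside 0.0007 over all pairs of genes. All pairs share the same 12 arrays, and the values are given as a description.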

How the data were processed

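Gastrocnemius RNA of 12 mice was read on 12 one-colour arrays, 3 in each of 4 groups, and the arrays are separately numbered animals. The deposited values are log2 levels, made with RMA per the submitters' processing notes, and the labels state no version, probe set definition or genome build. In 11 of the 12 columns, all but that of control animal 18, the sorted values were equal, so a shift common to all genes of an array could not be seen. Nothing in the labels or headers names a batch. Of 25206 probe sets, 2021 without a single gene symbol were left out and 23185 were tested. No filter on low values was used, so all 45 members were tested.

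A linear model with 4 group means was fitted on the deposited log2 values of all genes with limma 3.58.1 (lmFit and eBayes) in R 4.3.3, with 8 residual and 1.69 prior degrees of freedom. It gave 6 pairwise comparisons, the interaction and an F test of any difference, 8 tests in all, each two-sided with Benjamini-Hochberg adjusted p-values over all genes and a threshold of 0.05. Intervals are 95% intervals of the fit, not adjusted for the number of genes. The rule for naming genes took every member called, the 3 with the smallest p in each comparison and the member of each role with the widest range of group means, and the text adds others as examples of their role, chosen after their values were seen. The members, the marker lists and the pathway list were chosen with earlier results of these data known. The steps were tested on simulated data.

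The alternatives were all probe sets, probe sets above the median level, limma's trend and robust options, arrays centred on their median, a further quantile normalization, array weights, a fit to the compared groups only, and each array left out in turn. Added after the data were seen were fits with the tendon and fibroblast score or a score of 5 hepatocyte genes as a covariate. The mean tendon and fibroblast score differed between the groups, so a fit with it cannot tell score and group apart.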

Additional observations from a re-analysis of the deposited data

How the results depend on the processing

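No paired analysis was possible because the animal numbers differ between groups. The counts and medians were recomputed under 9 settings and with each array left out, and 405 of 458 such values counted as kept. A count was kept within 1.5-fold, and a median if it moved by less than the pooled SD of the array score (0.0496 core, 0.0473 19S). A median near 0 could therefore change sign and count as kept. Of 497 values of named genes 421 kept their side of the threshold, 67 lost it, 9 gained it and 0 reversed. Only genes called with all arrays could lose it, and many of the 497 belong to genes that were not. With each array left out, the pairwise calls held in 12 of 12 fits for Psmd1 and Psme4, 9 for Psmb7, 3 for Psme3ip1 and 2 for Psmd14. With only genes above the median level, LCN13 virus against control called 2 genes, Psmc1 and Psmc5 (core median -0.11), both viruses against LCN13 virus 4 and the F test 1. With the trend and robust options LCN13 virus against control and the F test called 0. With array weights LCN13 virus against control called 2, both viruses against LCN13 virus 1, and TSC22D4 against LCN13 virus 1. In the arrays of the compared groups alone 0 were called for LCN13 virus or both viruses against control and for both viruses against LCN13 virus, where fewer arrays were fitted. With the tendon and fibroblast covariate LCN13 virus against control, both viruses against control and the F test called 0. The core and 19S medians against control then were 0.038 and 0.0080 for TSC22D4 virus, 0.060 and -0.044 for LCN13 virus and 0.093 and 0.032 for both, and the interaction of the 19S particle was 0.12. With the hepatocyte covariate both viruses against LCN13 virus called 0, and the 19S median of TSC22D4 against LCN13 virus was 0.13. The cause of these changes was otherwise not tested.

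Leaving out each array in turn gave 1 to 2 calls for LCN13 virus against control (2 without LCN13 animal 23 or animal 30 of both viruses), with core medians of -0.074 to 0.027 and 19S medians of -0.22 to -0.13. For both viruses against control it gave 2 to 6 calls (6 without LCN13 animal 21: Psmb6, Psmb7, Psmd1, Psmd2, Psmd14 and Psme4) and core medians of -0.051 to 0.028. Against LCN13 virus, both viruses gave 0 to 4 calls and 19S medians of 0.025 to 0.12: 0 calls without LCN13 animal 23 or animals 29 or 32 of both viruses, 1 without control animals 18 or 19, LCN13 animal 21 or TSC22D4 animals 26 or 27, and 4 without animal 30 of both viruses. TSC22D4 against LCN13 virus gave 0 to 1 calls (Psmd7 without animal 30). The F test gave 1 to 6 calls: 1 without control animals 18 or 19, any TSC22D4 animal or animal 32 of both viruses, and 6 without animal 30. The 19S median was -0.092 to -0.041 for TSC22D4 virus against control and -0.054 to 0.0063 for both viruses against TSC22D4 virus. For the interaction it was 0.12 to 0.19, and that of the core -0.041 to 0.056. With 3 arrays a group, which differences passed depended on the spread of the gene, and genes near the array median are not shown to be above background.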
